A study of Homo sapiens with 4 samples.

Results

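SMARCB1 peaks at gene promoters in SK-Hep1 cells were examined together with the acetylation of histone H3 at lysine 27 (H3K27ac) around them, with and without knockdown of SMARCB1. The peaks were the lines of the deposited SMARCB1 peak list that the submitters' annotation places in the class promoter-TSS, that is, at a transcription start site. This class held 1299 of the 4453 SMARCB1 peaks (29.2%). No measured value entered the choice.

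SK-Hep1 is an established human line that the labels call a hepatic adenocarcinoma line. Chromatin immunoprecipitation with sequencing (ChIP-seq) was done with an antibody to SMARCB1 in 1 library, and with an antibody to H3K27ac in cells stably expressing a control shRNA (1 library) and in cells stably expressing an shRNA against SMARCB1 (1 library). All shRNA-expressing cells had been selected with puromycin, and the labels do not say which shRNA, if any, the cells of the SMARCB1 ChIP carried. The comparison asked how H3K27ac changed when SMARCB1 was depleted. With 1 library per condition there was no replicate error and no test between conditions was possible: every difference below is a difference between those libraries, and the 95% Wilson intervals on shares cover counting error only.

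SMARCB1 is a core subunit of SWI/SNF (BAF) complexes, ATP-driven machines that slide or evict nucleosomes. It is a tumour suppressor whose loss defines malignant rhabdoid tumours. H3K27ac is deposited at active promoters and enhancers, mainly by the acetyltransferases p300 and CBP. At an active promoter it lies on the nucleosomes on both sides of the open start site, so that a peak's width reflects how far the mark spreads from it.

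The sequences at these promoters were rich in G, C and CpG dinucleotides. RefSeq promoter sequences (GRCh38.p14, from 250 bases before to 50 after a start) were found for the start nearest to 1016 of the 1299 peaks. Their median GC content was 71.3%, against 65% at 10121 acetylated RefSeq starts with no SMARCB1 peak within 1 kb and 58.3% over all 27195 promoters of the table. The median number of CpG dinucleotides was 33, against 26 and 14. The following stretches, the 150 bases before the start on the gene's own strand, are shown because their H3K27ac values are described below. Capitals mark matches, on either strand, to the motifs searched. First come the glucose transporter gene SLC2A1, the heat-shock co-chaperone gene DNAJB1 and the glycolytic enzyme gene GAPDH, whose promoters had high SMARCB1 values and were acetylated in both libraries.
SLC2A1: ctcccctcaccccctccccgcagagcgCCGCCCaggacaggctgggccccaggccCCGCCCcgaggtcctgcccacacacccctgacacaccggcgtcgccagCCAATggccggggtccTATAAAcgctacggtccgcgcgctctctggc
DNAJB1: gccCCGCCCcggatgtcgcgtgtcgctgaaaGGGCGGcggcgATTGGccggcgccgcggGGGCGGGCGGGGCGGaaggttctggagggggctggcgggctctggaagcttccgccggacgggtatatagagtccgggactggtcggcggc
GAPDH: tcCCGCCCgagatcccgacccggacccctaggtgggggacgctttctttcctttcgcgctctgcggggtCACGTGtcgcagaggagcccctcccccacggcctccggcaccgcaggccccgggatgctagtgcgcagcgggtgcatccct
Next come 3 promoters whose H3K27ac peak was much narrower in the knockdown library.
HMGA1: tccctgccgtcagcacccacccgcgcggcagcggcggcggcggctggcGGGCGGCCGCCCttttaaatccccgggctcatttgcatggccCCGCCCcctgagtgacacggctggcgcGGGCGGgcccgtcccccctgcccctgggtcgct
ERRFI1: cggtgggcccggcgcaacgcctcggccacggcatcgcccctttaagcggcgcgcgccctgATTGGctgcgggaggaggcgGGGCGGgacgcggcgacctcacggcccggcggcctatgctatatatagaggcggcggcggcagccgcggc
VASN: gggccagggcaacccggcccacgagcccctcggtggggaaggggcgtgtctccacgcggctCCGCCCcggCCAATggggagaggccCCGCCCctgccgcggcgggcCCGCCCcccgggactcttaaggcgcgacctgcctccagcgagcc
These 3 had a wider peak in the knockdown library.
NDFIP2: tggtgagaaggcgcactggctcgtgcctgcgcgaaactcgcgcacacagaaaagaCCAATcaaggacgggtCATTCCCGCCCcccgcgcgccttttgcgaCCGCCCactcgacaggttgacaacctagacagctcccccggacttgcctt
SHMT1: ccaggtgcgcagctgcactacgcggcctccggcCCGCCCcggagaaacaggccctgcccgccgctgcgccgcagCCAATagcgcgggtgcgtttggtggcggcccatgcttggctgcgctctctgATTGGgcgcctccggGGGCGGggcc
MPRIP: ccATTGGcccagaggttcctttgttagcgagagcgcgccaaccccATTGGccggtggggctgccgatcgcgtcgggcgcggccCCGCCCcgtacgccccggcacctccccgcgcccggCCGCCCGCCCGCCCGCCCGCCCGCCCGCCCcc
The last 4 were acetylated in 1 library only: the first 3 in the control and ENHO in the knockdown.
SH3GL3: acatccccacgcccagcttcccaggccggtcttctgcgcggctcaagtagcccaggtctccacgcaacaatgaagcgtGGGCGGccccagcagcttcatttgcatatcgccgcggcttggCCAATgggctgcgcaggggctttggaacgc
CLSTN2: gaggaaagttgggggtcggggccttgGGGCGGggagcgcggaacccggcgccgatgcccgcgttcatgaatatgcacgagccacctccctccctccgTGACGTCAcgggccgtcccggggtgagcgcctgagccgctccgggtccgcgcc
IQGAP2: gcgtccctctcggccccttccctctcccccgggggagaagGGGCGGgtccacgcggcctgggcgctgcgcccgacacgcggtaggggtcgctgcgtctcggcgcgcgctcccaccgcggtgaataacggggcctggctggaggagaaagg
ENHO: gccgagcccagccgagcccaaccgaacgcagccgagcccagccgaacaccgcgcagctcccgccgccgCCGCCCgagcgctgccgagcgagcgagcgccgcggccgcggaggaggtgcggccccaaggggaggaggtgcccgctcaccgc
Their positions in hg38 were SLC2A1 chr1:42958869-42959018 (minus strand), DNAJB1 chr19:14518398-14518547 (minus strand), GAPDH chr12:6535114-6535263 (plus strand), HMGA1 chr6:34236723-34236872 (plus strand), ERRFI1 chr1:8026310-8026459 (minus strand), VASN chr16:4371698-4371847 (plus strand). Those of the others were NDFIP2 chr13:79481005-79481154 (plus strand), SHMT1 chr17:18363551-18363700 (minus strand), MPRIP chr17:17042307-17042456 (plus strand), SH3GL3 chr15:83447191-83447340 (plus strand), CLSTN2 chr3:139935035-139935184 (plus strand), IQGAP2 chr5:76403135-76403284 (plus strand), ENHO chr9:34522991-34523140 (minus strand). All lie upstream of the first base of the listed transcript. Other starts of these genes were not examined. The GAPDH stretch runs past the end of its SMARCB1 peak (chr12:6534047-6535253). Whether the listed GAPDH start is the one used in these cells was not determined.

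All 13 printed stretches held at least 1 copy of the SP/KLF motif GGGCGG (or its reverse complement CCGCCC), the GC box read by SP and KLF zinc-finger factors. In MPRIP 7 of its 8 copies overlapped each other in a run. Over the full promoter sequence the motif was present in 86.4% (84.2 to 88.4) of the 1016 promoters, in 69.3% of acetylated starts without SMARCB1 and in 44.7% of all promoters. The difference was smaller among promoters of similar base composition: at 65 to 75% GC the shares were 88.8% (85.7 to 91.4, n = 466), 85.8% (84.7 to 86.9, n = 3743) and 83.2%, and the first 2 intervals overlapped. The AP-1 motif TGANTCA, bound by FOS and JUN dimers, was present in 4.63% of the 1016, in 4.97% of acetylated starts without SMARCB1 and in 7.73% of all promoters. In the 65 to 75% GC range it was present in 4.72% (3.14 to 7.04) against 2.48% (2.03 to 3.03) at acetylated starts without SMARCB1, and the intervals did not overlap. The TATA motif TATAAA, as in SLC2A1, was present in 2.85%, against 5.21% and 12%, but in 2.15%, 2.03% and 2.48% at 65 to 75% GC. The NFY motif CCAAT was present in 33.8%, 36.1% and 35.7%. The ETS motif CCGGAAG was found in 19.7%, 20.2% and 10.7% of the same groups. The E-box CACGTG, which the printed GAPDH stretch holds, was present in 12%, 9.90% and 7.45%. At 65 to 75% GC it was present in 15.5% (12.5 to 19) against 11.3% (10.3 to 12.3) at acetylated starts without SMARCB1, again without overlap of the intervals. The CRE TGACGTCA, the site of CREB and ATF factors that CLSTN2 holds, was present in 2.07%, 3.54% and 1.98%. The TEAD motif GGAATG, read by the partners of YAP, was found in 7.78%, 11.2% and 14%, but in 8.37%, 8.87% and 8.87% at 65 to 75% GC. In NDFIP2 its match overlaps a GC box. The NRF1 motif GCGCATGCG (3.15%, 4.17% and 2.10%), the YY1 motif AAGATGGCG (4.23%, 3.89% and 1.86%) and the CGCG box TCTCGCGA (2.46%, 2.40% and 1.18%) were each present in under 5% of the 1016. At 65 to 75% GC the intervals of the other 9 motifs overlapped between these promoters and acetylated starts without SMARCB1. All searches covered both strands, and a match is a string of letters, not a measured site.

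Most of the peaks had a listed start within 1 kb of their centre, which was a condition for measuring an offset. The others were assigned by a gene end (219), the gene record around the centre (38), a small RNA gene inside the peak (4) or not at all (22). Their distance to a start was not measured. For the 1016 with a known start, the centre of the SMARCB1 peak lay at a median of 51 bp upstream (offset -51, quartiles -232 and 59), 62.7% of centres were upstream, and 69% lay within 250 bp. The lead gene was protein-coding for 1184 peaks, a long non-coding RNA for 58 and a small RNA for 35. No gene was found for 22. The value listed with each peak has no stated unit. It ranged from 7.92 to 1166.7 with a median of 13.2, against 11.1 at the other 3154 SMARCB1 peaks. Only 52 of 1256 promoter peaks (4.14%) shared their control H3K27ac peak with another SMARCB1 peak.

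As a check of the cell line's label, the promoters of marker genes were looked up in the H3K27ac lists. Of 10 hepatocyte markers, SERPINA1 and TF were acetylated in both libraries, while ALB, APOA1, APOB, TTR, HNF4A, FGA, CYP3A4 and AFP were in neither. Of 10 endothelial markers, ESAM alone was acetylated, in both. Of 10 mesenchymal markers 9 were acetylated in the control and 8 in the knockdown, COL1A2 in the control only. Of 10 epithelial markers 5 were acetylated in the control and 3 in the knockdown, EPCAM and CLDN3 in the control only. Just 1 of these 40 genes, the mesenchymal cadherin gene CDH2, had a SMARCB1 promoter peak (H3K27ac width 3436 bp with control shRNA and 3459 bp with SMARCB1 shRNA).

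Nearly all SMARCB1 promoter peaks lay in acetylated chromatin in both conditions. In the control 1256 of 1299 overlapped an H3K27ac peak by at least 1 base (96.7%, 95.6 to 97.5), and in the knockdown 1249 did (96.2%, 95 to 97.1). Both libraries marked 1241 (95.5%). Acetylation in the control only was found at 15 (1.15%, 0.701 to 1.90), against 2.72% of all SMARCB1 peaks. Acetylation in the knockdown only was found at 8 (0.616%, 0.312 to 1.21), against 1.15% of all SMARCB1 peaks. Neither library marked 35 (2.69%). Of the other SMARCB1 peaks 59.8% (58.1 to 61.5) overlapped control H3K27ac and 3.36% (2.79 to 4.05) did so in the control only. The first share differed from that of the promoter class by more than counting error. The second depended on the rule: with 50% of the peak covered, control-only promoters were 28 (2.16%, 1.5 to 3.1) against 3.36% of the other peaks, and with H3K27ac peaks of at least 1000 bp 46 (3.54%, 2.67 to 4.69) against 3.96% (3.34 to 4.70). SMARCB1 peaks in 5′ untranslated regions resembled the promoters (97.0%, 93.7 to 98.6), whereas 61.9% of those in introns and 55.7% of intergenic ones overlapped control H3K27ac. Among the 24895 RefSeq starts without SMARCB1 within 1 kb, 42.5% were acetylated in the control and 1.86% (1.70 to 2.04) in the control only. These control-only shares are over all regions, acetylated or not. Of regions acetylated in the control, by the 1-base rule, 15 of 1256 promoter peaks were control-only. The same held for 106 of 1887 other SMARCB1 peaks and 464 of 10585 starts without SMARCB1. By value of the SMARCB1 peak, the control share was 90.8% (84.6 to 94.6) in the lowest of 10 classes, 96.2% to 100% in the next 8 and 92.3% (86.4 to 95.8) in the highest. The highest class held 17 peaks led by small RNA genes, and all 113 of its other peaks overlapped control H3K27ac.

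**Figure D1:**
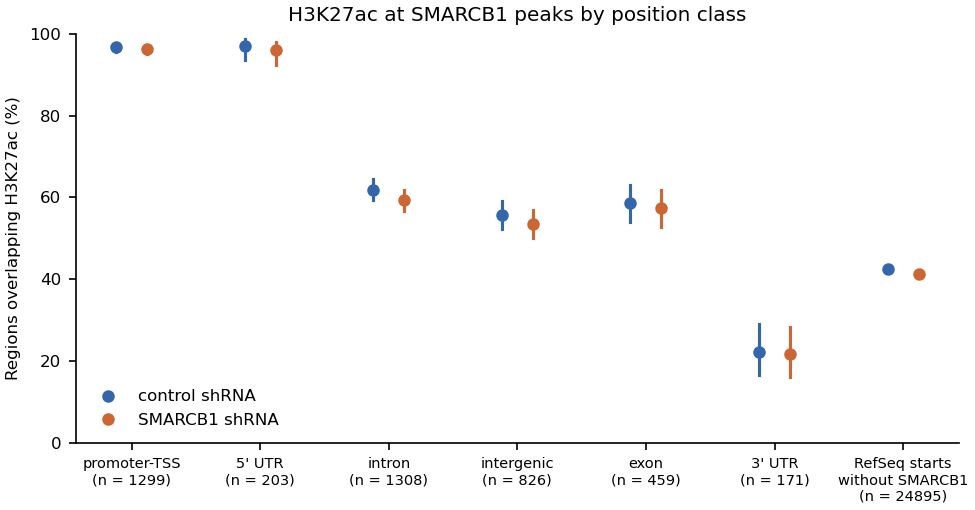
Share of regions that overlap an H3K27ac peak by at least 1 base (y axis, percent) in the control shRNA library (blue) and the SMARCB1 shRNA library (orange), for SMARCB1 peaks by the submitters' position class and for RefSeq starts without SMARCB1. Points are shares and bars 95% Wilson intervals; promoter peaks sit at 96.7% and 96.2%, with the 5′ UTR class beside them and the other classes drawn lower.

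The acetylated region was slightly narrower in the knockdown library at most of these promoters. Among the 1241 promoter peaks marked in both, the median width of the overlapping H3K27ac peak was 2564 bp in the control (quartiles 1919 and 3493) and 2318 bp in the knockdown (quartiles 1703 and 3193). It was narrower in the knockdown at 984, wider at 255 (20.5%) and of equal width at 2. The narrower share was 79.3% (76.9 to 81.5) here, 77.5% (76.6 to 78.3) at acetylated starts without SMARCB1 and 69.0% (68.5 to 69.6) over all control H3K27ac peaks with a counterpart. The median log2 ratio of widths was -0.136 (-0.150 to -0.124 from order statistics), a ratio of 0.910. The median was close to that elsewhere: acetylated RefSeq starts without SMARCB1 had a median log2 ratio of -0.144 (-0.149 to -0.139), and all control H3K27ac peaks with a counterpart -0.133. The control library also held 1.30 times the tags of the knockdown library (13235203 and 10203310), with estimated fragments of 190 and 158 bp, and the part of this in the narrower peaks was not tested. A width change of at least 1.5-fold was used to call single promoters. By it, H3K27ac was narrower at 98 promoter peaks (7.90%, 6.52 to 9.53), against 12.6% of all control H3K27ac peaks and 8.47% of acetylated starts without SMARCB1. It was wider at 19 (1.53%, 0.982 to 2.38), against 6.41% and 1.03%. Both intervals include the shares at starts without SMARCB1.

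**Figure D2:**
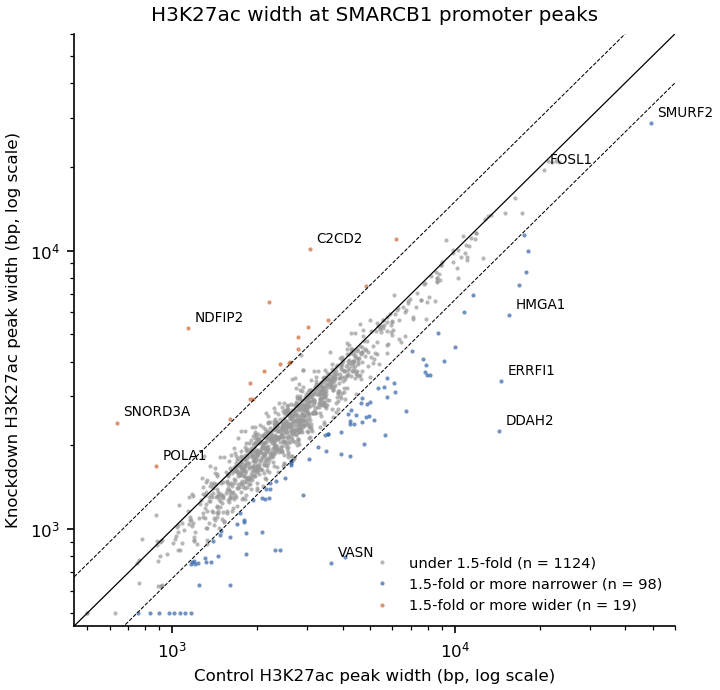
Width of the H3K27ac peak at each of the 1241 SMARCB1 promoter peaks marked in both libraries, control on the x axis and knockdown on the y axis (bp, both log scales). The solid line is equal width and the dashed lines 1.5-fold; 98 peaks lie on or below the lower line and 19 on or above the upper one, with some named genes labelled.

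Both edges of the acetylated region were closer to the SMARCB1 peak in the knockdown. For 991 promoters with a known strand the control H3K27ac peak reached a median of 1026 bp upstream and 1435 bp downstream of the SMARCB1 peak centre, and the knockdown peak 903 and 1288 bp. The median shift was -108 bp (-120 to -94) at the upstream edge and -120 bp (-136 to -106) at the downstream edge, and both edges had moved inward at 559 of them (56.4%). At starts without SMARCB1 the shifts were -105 and -107 bp, with both edges inward at 52.8%. The narrower calls were concentrated at the shortest and the longest acetylated regions. From the narrowest to the widest of 4 classes by control width they made up 9.32, 3.87, 2.58 and 15.8% of promoter peaks, and 8.38, 4.6, 5.43 and 15.8% of starts without SMARCB1 in the same width ranges. The wider calls made up 1.93, 1.29, 1.94 and 0.968% of promoter peaks and 1.97, 0.921, 0.251 and 0.448% of starts without SMARCB1. The intervals of the wider share overlapped in every class but the third (0.890 to 4.16 and 0.107 to 0.587), where they rest on 6 and 5 regions.

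**Figure D3:**
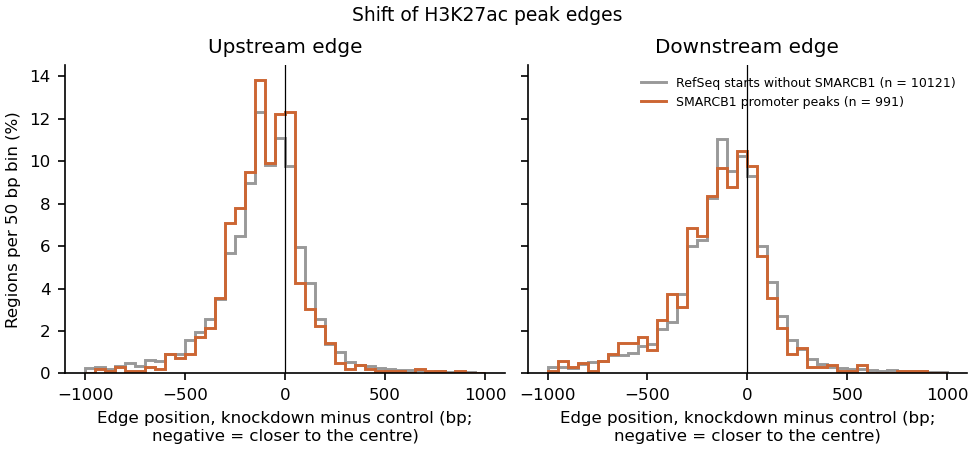
Distribution of the shift of the upstream (left) and downstream (right) edge of the H3K27ac peak, knockdown minus control, in bp on the x axis, as the percent of regions per 50 bp bin. The 991 SMARCB1 promoter peaks (orange) and the 10121 acetylated RefSeq starts without SMARCB1 (grey) both peak below 0, with median upstream shifts of -108 and -105 bp.

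Within the promoter class, the highest SMARCB1 values were at genes for abundant small RNAs, and these were the promoters least often acetylated. RN7SL1, the RNA of the signal recognition particle, had the highest value of the class (1166.7, chr14:49586492-49587116), which ranked 3 among all SMARCB1 peaks. It had no H3K27ac in the control and a peak of 2561 bp in the knockdown. RN7SK, the RNA that holds P-TEFb inactive, had a value of 923.2 and no H3K27ac in either library. RPPH1, the RNA of ribonuclease P, had a value of 912.1 and a knockdown peak of 1215 bp only, and RMRP, the RNA of ribonuclease MRP, a value of 445.8 and a knockdown peak of 2260 bp only. All of these are transcribed by RNA polymerase III. The knockdown peak at RN7SL1 shared only 37 bases with the SMARCB1 peak, that at RPPH1 51 and that at RMRP 381, so the mark touched the edge of the SMARCB1 peak or covered part of it. Within 5 kb of the RMRP peak 1271 bp were covered in control cells and 2680 bp in knockdown cells. EEF1A1, the elongation factor that delivers tRNA to the ribosome, had a value of 789.6 and widths of 3033 and 2972 bp. There too H3K27ac covered only an end of the SMARCB1 peak (chr6:73517660-73520274). It began at 73520007 in the control and at 73519947 in the knockdown. This SMARCB1 peak was assigned because its centre lay inside the gene record, not by a listed start.

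Of the 35 promoter peaks led by a small RNA gene, 17 overlapped control H3K27ac (48.6%, 33.0 to 64.4) and 23 knockdown H3K27ac (65.7%, 49.2 to 79.2), against 98.0% (97.1 to 98.7) and 97.0% (95.9 to 97.8) of the other 1264. Their median value was 23.2, and that of the others 13.2. None was acetylated in the control only, 6 were in the knockdown only and 12 in neither. Among the small RNAs 18 were small nucleolar RNAs (snoRNAs), most of which guide the modification of ribosomal RNA, and 16 of these peaks lay inside the record of a host gene. SNORD14D in the chaperone gene HSPA8 had a value of 168.5 and widths of 4430 bp and, over 2 peaks, 5075 bp. SNORD18A in RPL4 (78.7) had 2892 and 3738 bp, SNORD96A in RACK1 (57.0) 8630 and 7947 bp, and SNORA73A in RCC1 (54.9) 16301 and 15462 bp. SNORD15B in RPS3, SNORD36C in RPL7A and SNORD21 in RPL5 were marked in neither library, although 3257, 3375 and 2998 bp within 5 kb were covered in the control. Among the 18 snoRNA peaks 11 were marked in both, 2 in the knockdown only and 5 in neither. Among the 12 led by a microRNA gene the counts were 6, 1 and 5.

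The promoters with the largest loss of width included several wide acetylated regions. DDAH2, which encodes a dimethylarginine dimethylaminohydrolase family member, had the largest decrease (chr6:31730422-31731304): its peak spanned 14313 bp in the control library against 2245 bp after knockdown, a log2 ratio of -2.67. ERRFI1, a feedback inhibitor of the EGF receptor, went from 14573 to 3393 bp (-2.10). HMGA1, an architectural chromatin protein that binds AT-rich DNA, went from 15543 to 5873 bp (-1.40). At all 3 the knockdown library held further H3K27ac beside the peak: within 5 kb of the SMARCB1 peak the covered length was 7430 and 5339 bp at DDAH2, 7888 and 6094 bp at ERRFI1, and 8042 and 6279 bp at HMGA1. VASN, a cell-surface protein that binds TGF-beta, had 3653 and 757 bp, but 4154 and 2783 bp within 5 kb. PRKAG2, a regulatory subunit of the energy sensor AMPK, had 2310 and 846 bp with no other H3K27ac within 5 kb in either library, and so did the lncRNA LINC01271 with 1596 and 633 bp. CCDC85A had 2405 and 841 bp, with 2405 and 1342 bp within 5 kb. NBEAL2, needed for platelet alpha granules, had 5633 and 2173 bp, but 5633 and 4991 bp within 5 kb. The nuclear envelope protein gene SUN1 had 6705 and 2648 bp, but 6332 and 4899 bp within 5 kb. The transcription factor gene SIM2 had 4756 and 2029 bp, with 4756 and 2698 bp within 5 kb. The snoRNA SNORD102 in RPL21 had 4092 and 794 bp, the latter sharing 18 bases with the SMARCB1 peak, but 4593 and 3714 bp within 5 kb.

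The promoters with a wider peak in the knockdown were fewer. NDFIP2, an adaptor of NEDD4 ubiquitin ligases, had the largest increase (chr13:79480995-79481494), from 1137 to 5279 bp, a log2 ratio of 2.21. Other control H3K27ac lay nearby, so that within 5 kb the covered length was 2682 bp in control cells against 5279 bp. POLA1, the catalytic subunit of DNA polymerase alpha, had 879 and 1687 bp. SHMT1, the cytosolic serine hydroxymethyltransferase of one-carbon metabolism, had 1877 and 3347 bp, and CASTOR1, an arginine sensor of mTORC1, 2107 and 3697 bp. At these 3 the covered length within 5 kb equalled the peak in both libraries. The U3 snoRNA gene SNORD3A (635 and 2415 bp) was wider as a single peak. The galactosyltransferase gene B3GALT4 had 2196 bp and, summed over 2 or more peaks, 6536 bp. Neither was wider locally. Within 5 kb, 2538 and 2415 bp were covered at SNORD3A, and 7448 and 6964 bp at B3GALT4. C2CD2 had 3077 and 10132 bp, but 6371 and 7045 bp within 5 kb. The snoRNA host SNHG29 had 6161 and 11040 bp, but 6161 and 6892 bp within 5 kb. The anion channel subunit gene LRRC8C had 2773 and 4898 bp, but 4502 and 4898 bp within 5 kb. MPRIP, which binds myosin phosphatase, had 3031 and 5310 bp, with 3532 and 5715 bp within 5 kb. MAFG, a small MAF partner of NRF2, had 3547 and 5648 bp, and 4355 and 5648 bp within 5 kb. LRCH4 had 2794 and 4430 bp, and 3295 and 4430 bp within 5 kb.

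Of the 19 wider promoters 5 were on chromosome 17, and 4 of those (SNORD3A, SNHG29, SHMT1 and MPRIP) lay between 15 and 20 Mb. In that interval 9 promoter peaks were marked in both libraries and their median log2 ratio was 0.12. Starts without SMARCB1 there were wider as well: 28 of 38 had a wider peak in the knockdown (73.7%), with a median of 0.096. Over the whole chromosome the medians were -0.029 for 105 promoter peaks and -0.059 for starts without SMARCB1, and 11 of the 105 were called narrower. The interval was picked after the values were seen.

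**Figure D4:**
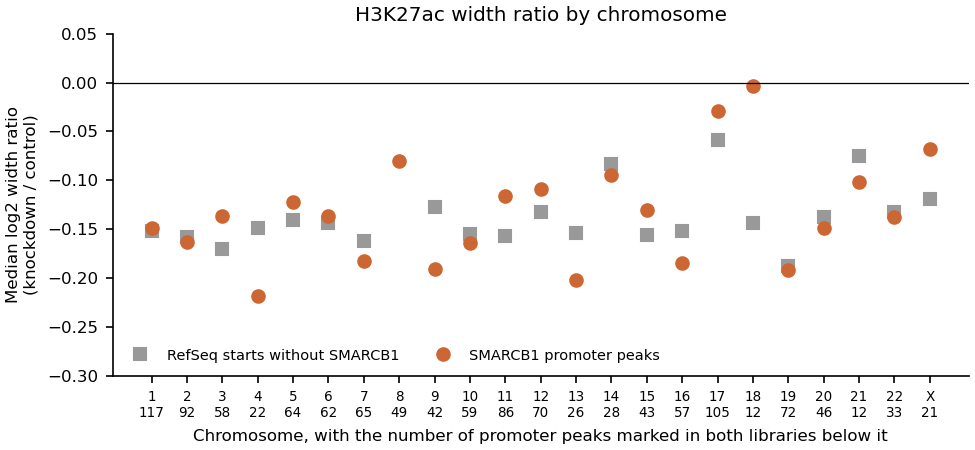
Median log2 ratio of H3K27ac width, knockdown over control, by chromosome (x axis, with the number of promoter peaks marked in both libraries below each) for SMARCB1 promoter peaks (orange) and RefSeq starts without SMARCB1 (grey; none in the table for chromosome 8). Chromosomes 17 and 18 lie nearest to 0 for promoter peaks, at -0.029 (105 peaks) and -0.004 (12 peaks).

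Promoters acetylated in the control only had mostly short peaks. The 15 H3K27ac peaks had a median width of 754 bp, and at 10 of them the knockdown list held no H3K27ac within 5 kb. SH3GL3, the endophilin A3 gene, had the widest peak among those 10 (1305 bp; chr15:83446956-83447585). RPRML (923 bp), the Ras exchange factor gene RASGRF2 (768 bp), KIAA0319 (754 bp), the calsyntenin gene CLSTN2 (656 bp), the zinc-finger gene ZNF521 (632 bp), the scaffold gene IQGAP2 (629 bp), the ETS factor gene ELF1 (501 bp) and DOCK3 (501 bp) were the other named ones, beside 1 peak with no gene assigned. GFI1, a transcriptional repressor of blood cells, had 2174 bp in the control, but 1171 bp lay within 5 kb in the knockdown. ARMH1 had 5065 bp in the control, with 4462 bp in the knockdown within 5 kb. LARGE2 had 1324 bp with 1445 bp nearby, MDFI 628 bp with 629 bp nearby, and a peak with no gene assigned 3557 bp with 2801 bp nearby. A peak of 501 bp is about the shortest that the lists hold. Of the 8 knockdown-only promoters, 6 were led by small RNA genes. The others were ENHO, which encodes the peptide adropin (760 bp), and TLL2, a tolloid-like metalloprotease (501 bp), with no control H3K27ac within 5 kb. SNORA63B in EIF4A2 had 4599 bp in the knockdown beside 4562 bp in the control within 5 kb, so both libraries were marked there. MIR6747 in EEF1G (657 bp) and SNORD10 in EIF4A1 (501 bp) likewise had 4367 and 6549 bp of control H3K27ac within 5 kb.

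Of the 35 promoter peaks marked in neither library, 8 had control H3K27ac within 5 kb. Beside those led by small RNA genes, the highest values were at peaks assigned to PABPC1, the poly(A)-binding protein gene (19.5), and the adhesion receptor gene ADGRA1 (15.8). Both lacked H3K27ac within 5 kb. The PABPC1 peak was assigned by an end of the gene record, without a listed start or strand, and MIR7705 also lay within 1 kb. Whether this peak lies at the start of PABPC1 was not determined. At the other end, the widest acetylated regions over a SMARCB1 promoter peak were at SMURF2, a ubiquitin ligase of TGF-beta signalling (49448 and 28637 bp), the lncRNA PVT1 (23398 and 20758 bp), the integrin gene ITGA3 (22678 and 21010 bp), the scaffold gene DLG1 (22042 and 20745 bp), the plectin gene PLEC (21395 and 20885 bp) and FOSL1 (20558 and 19408 bp). All 6 were narrower in the knockdown, beside 79.3% of all promoter peaks. SMURF2 was narrower by more than 1.5-fold, as were 15.8% of promoter peaks in the widest of the 4 width classes. These 6 were picked by their control width, which by itself favours a narrower knockdown peak.

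Some genes of the SWI/SNF complex itself carried a SMARCB1 promoter peak. Of 28 subunit genes 4 had a promoter peak: BCL7B (3380 and 3253 bp), BCL7C (2118 and 1870 bp), the core subunit SMARCC2 (3025 and 2759 bp) and the bromodomain subunit BRD7 (1302 and 1332 bp). The SMARCB1 gene itself had no peak of the promoter class within 1 kb. SMARCB1 peaks of the other position classes were not looked up there. For scale, 1360 of 19974 protein-coding genes (6.81%, 6.47 to 7.17) had a promoter peak within 1 kb, as did 1346 of the 12480 acetylated in either library (10.8%, 10.3 to 11.3). Nearly all genes of most lists were acetylated, so the latter is the nearer base for their shares. The median log2 width ratio of all promoter peaks was -0.136. None of the 4 subunit genes changed by 1.5-fold. Of other chromatin regulators 8 of 70 (11.4%) had a promoter peak, with a median of -0.019: they included the acetyltransferase EP300 (3216 and 3313 bp), the acetyl-lysine readers BRD2 (8539 and 8352 bp) and BRD3 (3448 and 3519 bp), the deacetylases HDAC4 and HDAC7, and EED of the Polycomb complex PRC2 (2807 and 2797 bp). Of 31 nucleoporins, the proteins of the nuclear pore, 3 had one, with NUP88 at 5334 and 3201 bp, NUP98 at 2926 and 2803 bp and NUP50 at 4352 and 4003 bp.

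AP-1 and immediate early genes are the first genes switched on by growth factor and stress signals. They had promoter peaks at 8 of 30 (26.7%, 14.2 to 44.4), against 10.8% of acetylated protein-coding genes. All 8 were acetylated in both libraries, as were 95.5% of all promoter peaks. SRF, the factor that drives many immediate early genes, had the highest value of the group (35.4) and widths of 3007 and 3013 bp. The AP-1 subunit genes were FOSL2 (12533 and 9419 bp), FOSL1, JUN (6704 and 6109 bp) and BATF3 (2830 and 2461 bp). DUSP1, a MAP kinase phosphatase, had 11053 and 9488 bp, EGR1 2718 and 2475 bp, and the antiproliferative gene BTG2 2678 and 2066 bp. In this group 7 of 8 were narrower, beside 79.3% of all promoter peaks, with a median log2 ratio of -0.168, and none by 1.5-fold. Of 25 NRF2 targets, genes of the oxidative stress response, 5 had a peak (20%, 8.86 to 39.1). NFE2L2, which encodes NRF2 (5061 and 4140 bp), HMOX1, GSR and MAFG were among them. Of 28 stress-response genes 3 had a peak (10.7%, 3.71 to 27.2). These were DDIT4 (5126 and 3948 bp), HERPUD1 (2638 and 2209 bp) and CEBPG (2012 and 1677 bp). The intervals of the NRF2 and stress-response shares both include 10.8%.

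Groups of genes of protein synthesis had promoter peaks at shares below and above the 10.8% of acetylated protein-coding genes. Of the groups that follow here, only the cytosolic ribosomal proteins had an interval above that share. Cytosolic ribosomal protein genes had promoter peaks at 15 of 79 (19.0%, 11.9 to 29.0), with RPL8 (value 42.8; 3466 and 3465 bp) and RPS25 (40.7; 3683 and 3911 bp) among those of high value. Their median log2 ratio was -0.073, with 11 narrower and 4 wider, and 1 passed 1.5-fold, RPS24 (4676 and 2432 bp). Mitochondrial ribosomal proteins, in contrast, had peaks at 3 of 77 (3.90%, 1.33 to 10.8). Translation factors had peaks at 6 of 42, and aminoacyl-tRNA synthetases at 3 of 37, of which CARS1 was narrower by 1.5-fold (4699 and 2964 bp). Oxidative phosphorylation genes had 11 of 76 (14.5%, 8.28 to 24.1), with NDUFB8 narrower by 1.5-fold (2144 and 1395 bp). Splicing factors and hnRNPs had 6 of 59, none past 1.5-fold (median -0.278). All 6 were narrower, beside 79.3% of all promoter peaks, among them TRA2A (2875 and 2227 bp) and HNRNPR (4915 and 3865 bp). Of 33 proteasome subunits only PSMD3 (3475 and 3729 bp) and ADRM1 (3585 and 3617 bp) had a peak.

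Among metabolic genes, 3 of 24 of glycolysis had a peak: SLC2A1 (value 39.1; 3687 and 3518 bp), GAPDH (37.5; 6082 and 6943 bp) and hexokinase HK1 (32.7; 2298 and 2720 bp). Cholesterol synthesis had 3 of 28, of which INSIG1, which retains SREBP in the endoplasmic reticulum, was narrower by 1.5-fold (4987 and 2862 bp). SREBF1 had 8643 and 7754 bp, and SQLE 4184 and 3931 bp. Of 38 chaperone genes 5 had one, on 4 peaks: DNAJB1 (8857 and 7844 bp), the shared promoter of HSPD1 and HSPE1 (4326 and 3847 bp), CCT7 and DNAJC3. DNA repair had 10 of 58 (17.2%, 9.64 to 28.9), an interval that includes the 10.8% of acetylated protein-coding genes. Among them were PARP1 (2676 and 2210 bp) and TP53BP1, narrower by 1.5-fold (1161 and 753 bp). The promoter peak of PARP2 is that of RPPH1. DNA replication and cell cycle genes had 6 of 66, with POLA1 the only one past 1.5-fold. Replication-dependent histone genes had 2 of 58, H2AC8 and H2BC8, under 1 peak (6445 and 4691 bp).

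Actin and focal adhesion genes (13.5%, 6.68 to 25.3) and mesenchymal and matrix genes (10.3%, 4.06 to 23.6) had promoter peaks about as often as acetylated protein-coding genes (10.8%). For scale of the single calls, 7.90% of all promoter peaks were narrower by 1.5-fold and 1.53% wider. Of 52 actin and focal adhesion genes 7 had a promoter peak: MYH10, a non-muscle myosin (value 43.8; 1966 and 2330 bp), VCL, vinculin, narrower by 1.5-fold (4190 and 2591 bp), and PDLIM1, ACTR3, FLNC, TLN1 and TAGLN2 with smaller differences. Of 39 mesenchymal and matrix genes 4 had one. Among them COL5A1 was wider by 1.5-fold (1882 and 2934 bp) and SNAI1, an EMT transcription factor, narrower (970 and 501 bp), while P4HA2 and CDH2 passed neither threshold. The 501 bp at SNAI1 is about the shortest width that the lists hold. YAP and TEAD genes had 3 of 23, TEAD1 (4314 and 4437 bp), TEAD4 (3775 and 3467 bp) and GADD45A. NF-kB genes had 2 of 30, RELA (3195 and 2639 bp) and REL (2646 and 2679 bp). Interferon genes had 2 of 31, and p53 targets 2 of 25, BTG2 and RRM2B. The snoRNA host and abundant non-coding RNA genes had 8 of 26: beside RN7SL1, RN7SK, RPPH1 and RMRP these were SNHG29, SNHG32 (6334 and 4820 bp), SNHG12 (5151 and 4093 bp) and SNHG16, narrower by 1.5-fold (5740 and 3478 bp).

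**Figure D5:**
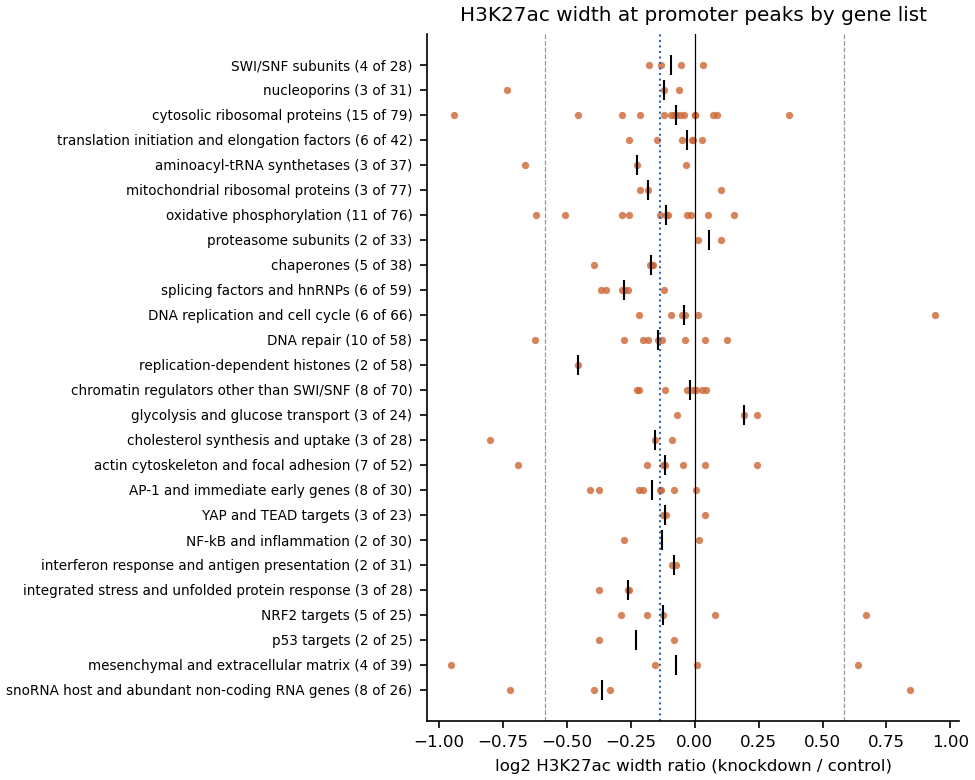
Log2 ratio of H3K27ac width, knockdown over control (x axis), for the promoter peaks of each gene list (y axis, with how many of its genes had a promoter peak). Points are promoter peaks, black ticks list medians, the dotted line the median of all promoter peaks (-0.136) and dashed lines 1.5-fold; the AP-1 and immediate early list has its median at -0.168 and the cytosolic ribosomal proteins at -0.073.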

How the data were processed

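The deposited files hold peak positions in hg38 for 3 ChIP-seq libraries. Bowtie2 and HOMER were used, per the submitters' processing notes, without versions. Per the file headers, the authors called each H3K27ac list with HOMER in histone style from 1 library, both against the control input, asking for 4-fold enrichment over it, peaks of 500 bp and 1000 bp between them. Caller settings for SMARCB1, and the unit of the score in that deposited list, were not stated; the score only ranked peaks.

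Overlap meant at least 1 shared base, checked with bedtools 2.31.1, and widths were those of the overlapping H3K27ac peaks. Chromosomes 1 to 22 and X were used. The comparator was a 500 bp window at the first RefSeq start of each of 27195 genes with a listed start, without a SMARCB1 peak within 1 kb. A start was listed for 15812 of 19974 protein-coding genes and for no gene on chromosome 8, which held 51 promoter peaks. The lead gene was a small RNA gene wholly inside the peak (4 peaks), otherwise the nearest start (1016) or, for genes without a listed start, gene end (219) within 1 kb of the centre, coding genes first, otherwise the gene around the centre (38). Named genes were the 10 highest values, the 12 largest ratios in each direction among peaks of at least 1000 bp, those marked in 1 library, the 8 highest values marked in neither, the 6 widest, and list members; a few of these are not reported here. The members, lists and rules were chosen with earlier results of these data known. The code (Python 3.11.15, pandas 2.3.3, SciPy 1.17.1) was tested on simulated data. Alternatives varied the overlap rule, minimum width, merging, peaks counted, local cover and scaling.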

Additional observations from a re-analysis of the deposited data

How the results depend on the processing

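Of 62 values under 10 alternatives, 43 stayed within the interval, or within 1.5 times, of the reported value. Requiring 50% of the SMARCB1 peak, or its centre base, to be covered gave shares of 95.5% in the control and 94.0% in the knockdown and 28 control-only promoters. The upper 50% of promoter peaks by value gave 97.7% in both and 6 control-only. With H3K27ac peaks of at least 1000 bp the shares were 93.9% and 90.9%, 46 were control-only and 5.79% were called narrower. Counting bases covered within 5 kb, 5.81% were called narrower and 0.955% wider. Scaling widths by the median ratio of all shared peaks moved the median log2 ratio to -0.00252 (-0.0168 to 0.00897, an interval that includes 0) and the narrower share to 5.48%. Without promoters led by small RNA genes, chosen after seeing the data, the control share was 98.0% and 2 were knockdown-only.

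No paired analysis was possible because each condition had 1 library. Width depends on depth and fragment length, and peak lists carry no signal height, so a change in H3K27ac level within a peak of equal width was not measurable. Control-only peaks of about 501 bp are at the limit of the lists.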
